A study of Mus musculus with 16 samples.

Results

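The A391T cortex was compared with the wild-type cortex. The 8 cortex libraries, 1 for each of 4 A391T mice and 4 wild-type mice, were chosen by their sample titles out of 16 libraries of the series, the other 8 being cerebellum of the same animals. The A391T mice carry a mutation of Slc39a8 that the labels write as A391T (A393T), and the wild-type mice carry none. Both groups are of the C57BL/6J strain and neither received a treatment named in the labels. The labels give no age, sex or number of mutant alleles, and do not name litters. The study's paper describes its wild-type RNA-seq mice as males of a single young adult age and its mice as littermates, without saying whether this covers the A391T mice. The A391T cortex libraries are named CTX445, CTX446, CTX461 and CTX462, and the wild-type libraries CTX447, CTX448, CTX479 and CTX480.

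Slc39a8 encodes ZIP8, a transporter of the cell membrane that takes up manganese, zinc and iron. Manganese is a cofactor of many glycosyltransferases of the Golgi, and loss of ZIP8 in people causes manganese deficiency with faulty N-glycosylation. The human A391T variant is carried by a common allele that has been associated with schizophrenia, and its position in the mouse protein is 393. The bases around that codon are shown because they are the only designed difference between the groups. In the annotation of NCBIM37 (mm9), the build of the count files, Slc39a8 lies on the plus strand of chromosome 3 from 135488243 to 135551536, and codon 393 of the protein lies in coding exon sequence from 135547688 to 135547690. The reference codon there encodes alanine, which the A393T change replaces with threonine, while the mouse codon at the number of the human variant encodes asparagine. The capitals mark codon 393 in reference bases 135547658 to 135547720.
Slc39a8 reference: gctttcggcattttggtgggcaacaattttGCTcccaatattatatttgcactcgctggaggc

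Depth was alike in the groups, from 24344092 to 29419012 counts on genes in the A391T libraries and from 20813432 to 30497206 in the wild-type libraries. The first principal component held 32.6% of the variance and set the library of wild-type mouse CTX480 apart, at 36.0 against -15.3 to 3.04 for the other 7 libraries. The share of reads not aligned uniquely was also highest there, at 12.1% against 9.90% to 10.6%. Among the genes that weigh most on this component, Mir5115 was at 25.02 CPM in that library against 2.88 to 4.88 CPM in the other 7, AY036118 at 218 against 59.5 to 97.6 CPM and Lars2 at 163 against 47.0 to 58.2 CPM, while the potassium channel gene Kcnq3 was at 8.96 against 19.5 to 35.8 CPM. The library of A391T mouse CTX461 had a low sum of striatum markers, described with the cell types. The tissue label was borne out by genes of cortical projection neurons. They summed to 8805 to 10140 CPM (counts scaled to normalized library size) in each library, against 187 to 231 CPM for markers of cerebellum. The names of the libraries are in doubt. The deposited table of RPKM values (reads scaled to gene length and library size) holds the same libraries, and 4 of its 8 cortex columns carry the other genotype. The libraries that the count files name CTX461 and CTX462 stand in the table as wild-type mice CTX447 and CTX448, and the reverse. The files do not show which source is right, so results in cortex are given first under the count-file names, which match the sample titles, and those the names bear on also under the table names. For CTX445, CTX446, CTX479 and CTX480 the names are the same.

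Few genes differed between the genotypes. Of 15815 genes tested with edgeR's quasi-likelihood test, 2 passed an adjusted p of 0.05. Plin4, which encodes a protein of the lipid droplet surface, was lower in A391T cortex (0.00632% of genes tested were called lower), and Klf10, a zinc-finger transcription factor induced by TGF-beta, was higher (0.00632% were called higher). Only Plin4 also passed the 2-fold criterion of the study. At an unadjusted p of 0.05, 395 genes (2.50%) were higher and 353 (2.23%) lower, together 4.73% of the genes tested. Over all genes tested the median log2 fold change was 0.00, and the middle part of the distribution ran from -0.07 to 0.07 between its quartiles.

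Plin4 (ENSMUSG00000002831) was measured at 1.73, 1.80, 2.08 and 1.59 CPM in A391T mice CTX445, CTX446, CTX461 and CTX462. In wild-type mice CTX447, CTX448, CTX479 and CTX480 it was 3.67, 8.18, 6.14 and 6.21 CPM. All 4 A391T mice lay below all 4 wild-type mice, and wild-type mouse CTX447 lay nearest to them. The means were 1.80 ± 0.206 CPM in A391T and 6.05 ± 1.85 CPM in wild type (SD, n = 4 each). The log2 fold change was -1.76 (SE 0.22, adjusted p = 0.0496 with edgeR), a level 3.38-fold lower. These values rest on 42 to 51 counts in the A391T libraries and on 91 to 245 in the wild-type libraries. The gene lies on the minus strand of chromosome 17 from 56240014 to 56249225 (NCBIM37), where its exons overlap those of Hdgfrp2 on the other strand. The reads were counted without regard to strand, so reads of the overlap cannot be given to either gene, and Hdgfrp2 had a log2 fold change of 0.05 (SE 0.07). Because Plin4 was the only gene past both criteria, the 250 bases before its RefSeq start are shown (GRCm38.p6, chr17:56109783-56110032, minus strand). The window is given in lower case throughout because no glucocorticoid response element (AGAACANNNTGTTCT, both strands) was matched in it. That motif was found in 0.00913% of 32851 such windows of all genes. Among the glucocorticoid-responsive genes described below it was matched in only 1 of 23 windows (4.35%). Its absence therefore cannot tell whether the glucocorticoid receptor acts on Plin4.
Plin4 upstream: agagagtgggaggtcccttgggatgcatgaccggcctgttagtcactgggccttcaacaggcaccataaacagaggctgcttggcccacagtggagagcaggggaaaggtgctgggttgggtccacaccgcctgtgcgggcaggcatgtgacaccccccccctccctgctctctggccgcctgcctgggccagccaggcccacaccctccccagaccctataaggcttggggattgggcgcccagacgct

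Klf10 (ENSMUSG00000037465) was measured at 58.6, 53.7, 62.0 and 55.6 CPM in A391T mice CTX445, CTX446, CTX461 and CTX462. In wild-type mice CTX447, CTX448, CTX479 and CTX480 it was 37.0, 36.9, 27.4 and 36.1 CPM. The groups did not overlap, and wild-type mouse CTX479 was lower than the other 3 wild-type mice. The log2 fold change was 0.74 (SE 0.09, adjusted p = 0.0496 with edgeR), a level 1.67-fold higher. Both adjusted values lie at the threshold, and the next gene by p, Agxt2l1, had an adjusted p of 0.141 with edgeR. The direction of both genes was kept whichever single library was left out, with log2 fold changes from -1.93 to -1.56 for Plin4 and from 0.64 to 0.78 for Klf10. The calls were not. Plin4 passed without wild-type mouse CTX447 (edgeR adjusted p = 0.00266) or CTX480 (0.0238), and was at 0.0990 without mouse CTX448, at 0.146 without mouse CTX479 and at 0.292 to 0.421 without any 1 of the A391T mice. Klf10 passed without mouse CTX479 (0.0159) or CTX480 (0.0193) and was at 0.0990 to 0.421 otherwise. Both calls were also lost in edgeR with RLE factors (adjusted p = 0.0512 each), library totals (0.0595) or a CPM of at least 1 in 4 libraries (0.0594), and with all 16 libraries in 1 model (0.0570 for Plin4, 0.0567 for Klf10), while limma voom gave 0.234 for Plin4 and 0.101 for Klf10. With edgeR's exact test 13 genes were called and with DESeq2 16, Plin4 and Klf10 among them.

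**Figure D1:**
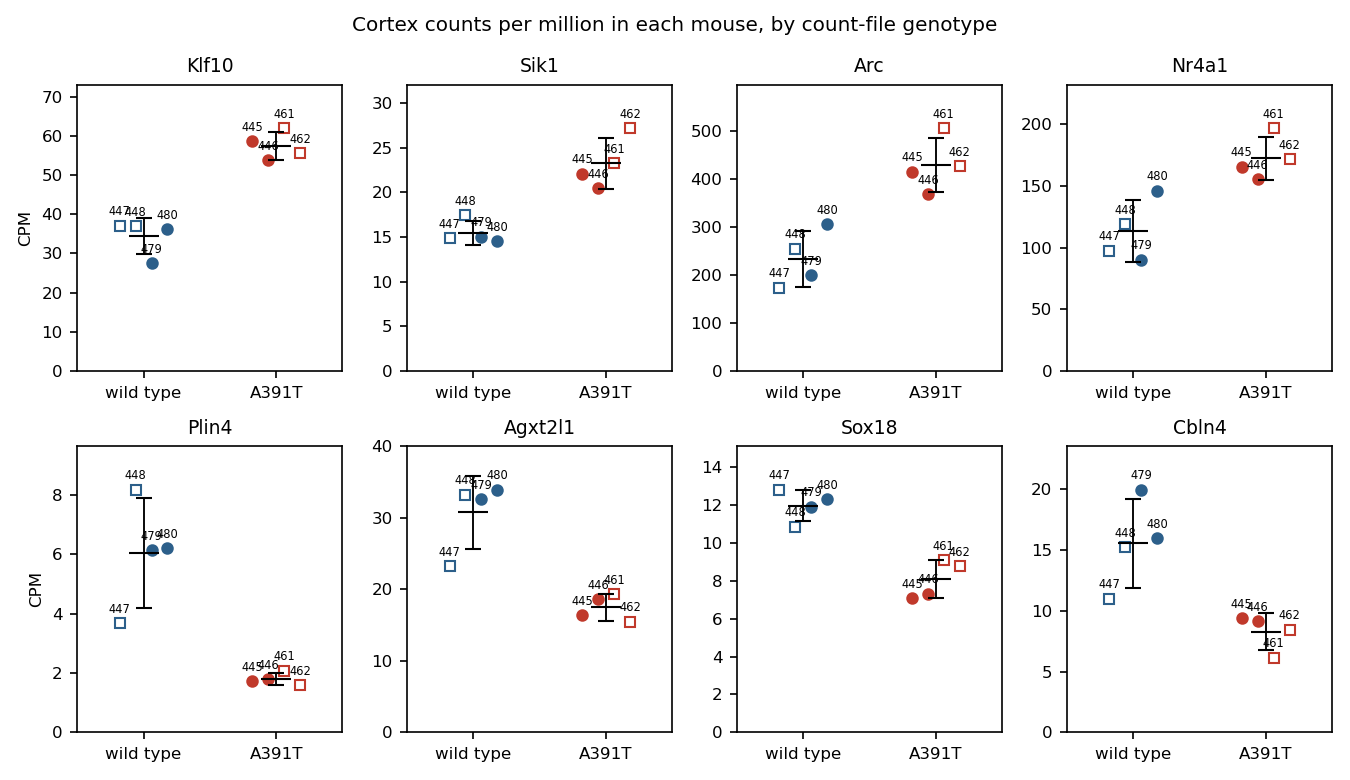
CPM (y axis, from 0) of 8 genes in each cortex library, grouped by count-file genotype. Points are single mice with the numbers of their library names, bars are the mean and SD, and open squares are libraries that carry the other genotype in the RPKM table. The 4 genes of the upper row were higher and the 4 of the lower row lower in all 4 A391T mice than in all 4 wild-type mice, and among the 8 only Klf10 and Plin4 passed an adjusted p of 0.05.

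The 10 genes of smallest p in the higher direction, Klf10 among them, had fold changes from 1.29 to 1.84. None of the 9 after Klf10 passed the adjusted p. Arc, a regulator of synaptic strength whose RNA is made on neuronal activity, was measured at 414, 368, 505 and 426 CPM in the A391T mice and at 173, 254, 199 and 305 CPM in the wild-type mice, without overlap. Its log2 fold change was 0.88 (SE 0.16, adjusted p = 0.389 with edgeR). Sik1, a kinase induced by cAMP, was at 20.5 to 27.2 CPM in A391T and at 14.6 to 17.4 CPM in wild type, with a log2 fold change of 0.59 (SE 0.10). Nr4a1, an orphan nuclear receptor and immediate early gene, had a log2 fold change of 0.61 (SE 0.13). Tiparp, a target of the aryl hydrocarbon receptor, had a log2 fold change of 0.55 (SE 0.10). The transcription factor genes Sox8 (0.39, SE 0.08) and Insm1 (0.37, SE 0.08) and the gene Ier5l (0.39, SE 0.08) differed less on the log2 scale. Ide, which encodes insulin-degrading enzyme, had a log2 fold change of 0.49 (SE 0.11), and 1700001L05Rik one of 0.75 (SE 0.17) at a mean below 3 CPM in both groups.

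The 9 genes reported in the lower direction by smallest p, Plin4 among them, had fold changes from 1.24 to 3.38. None of those after Plin4 passed the adjusted p. Agxt2l1, now named Etnppl, encodes an enzyme of astrocytes that breaks down phosphoethanolamine. It was measured at 16.4, 18.7, 19.4 and 15.5 CPM in the A391T mice and at 23.2, 33.2, 32.6 and 33.9 CPM in the wild-type mice, without overlap, with a log2 fold change of -0.82 (SE 0.12, adjusted p = 0.141 with edgeR). Cbln4, which encodes a secreted organizer of synapses, was at 9.40, 9.15, 6.12 and 8.43 CPM against 11.0, 15.2, 19.9 and 16.0 CPM, with a log2 fold change of -0.90 (SE 0.18, adjusted p = 0.549). Sox18, a transcription factor of endothelial cells, was at 7.09 to 9.06 CPM in A391T and at 10.8 to 12.8 CPM in wild type (log2 fold change -0.57, SE 0.10). Vwf, which encodes von Willebrand factor of endothelium, was at 19.98 to 25.9 CPM against 27.3 to 40.0 CPM (log2 fold change -0.52, SE 0.12). Sparc, which encodes a matrix glycoprotein of vessels and glia, had a log2 fold change of -0.31 (SE 0.07). Vwf was the only one of the 16 endothelial and mural markers tested whose groups did not overlap, 11 of the 16 had a lower mean and 5 a higher, 2 were lower at an unadjusted p of 0.05 (background 2.23%), and the list's summed level of 733 to 834 CPM in A391T overlapped the 772 to 894 CPM in wild type. By the table names 13 of the 16 had a lower mean, 4 were lower at an unadjusted p of 0.05 (background 3.14%) and the median was -0.15, and in the 4 mice named alike 14 had a lower mean with a median of -0.22, against a median of -0.09 as reported. In whole tissue, fewer cells of a type and less RNA per cell cannot be told apart. The remaining genes were Ddit4l, an inhibitor of mTOR signalling (-0.43, SE 0.09), Smox, the spermine oxidase (-0.31, SE 0.07), and Cited4, a transcription cofactor (-0.43, SE 0.10), each as a log2 fold change. For all 10 higher and all 9 lower genes the groups did not overlap. They were chosen by p in this contrast, and among all genes tested 1.78% were higher without overlap and 1.46% lower.

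Under the names of the RPKM table the contrast was a different one. No gene passed the adjusted p with edgeR (0% called), the smallest adjusted p being 0.322, and 747 genes (4.72%) had an unadjusted p under 0.05, 250 of them higher (1.58%) and 497 lower (3.14%). The 19 genes named above had log2 fold changes from -0.25 to 0.17 there, with the smallest unadjusted p at 0.274, and none of them was without overlap, as 1.37% of all genes were on the higher and 1.87% on the lower side. Plin4 came to a log2 fold change of 0.00 (SE 0.47) and Klf10 to 0.04 (SE 0.23). The 3 genes of smallest p under those names were Gadd45g, Npas4 and Btg2, all induced by stress or neuronal activity, and all 3 are named here after their values were seen. Btg2 was at 51.2 and 56.3 CPM in the libraries of count-file mice CTX461 and CTX462 and at 58.4 CPM in that of mouse CTX480. In the other 5 libraries it was at 16.2 to 29.1 CPM. Its log2 fold change was -1.19 (SE 0.20) under the table names and 0.31 (SE 0.39) under the count-file names. No gene passed the adjusted p under both sets of names.

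In the 4 mice named alike by both sources, 2 against 2, all 19 named genes kept their direction, with log2 fold changes from -1.80 to 0.95, but those mice were also part of the contrast that chose the genes. Plin4 was at -1.80 (SE 0.18, adjusted p = 0.233) and Klf10 at 0.82 (SE 0.15, adjusted p = 0.833). Of 15930 genes tested in these mice with edgeR, 1 was lower (0.00628%) and 0 higher (0%) at an adjusted p of 0.05, while 843 (5.29%) had an unadjusted p under 0.05. The gene was Lcn2, named here after its values were seen. It encodes lipocalin 2, an acute-phase protein that binds bacterial siderophores. It was at 0.08, 0.08, 0.08 and 0.17 CPM in A391T mice CTX445, CTX446, CTX461 and CTX462 and at 0.20, 2.20, 18.8 and 32.7 CPM in wild-type mice CTX447, CTX448, CTX479 and CTX480. The 2 highest values were thus those of mice CTX479 and CTX480, while wild-type mouse CTX447 lay near the A391T mice. With as few as 2 counts in a library it did not enter the test of all 8 libraries.

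**Figure D2:**
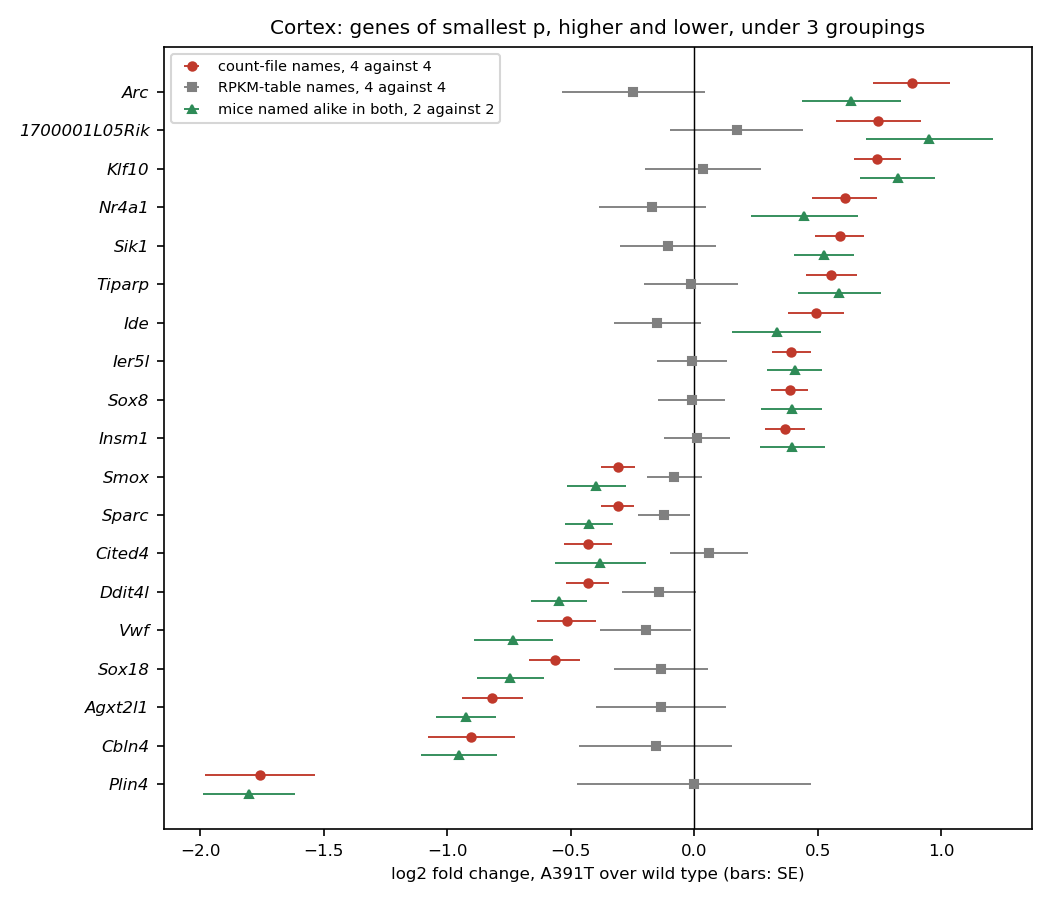
Log2 fold change of A391T over wild type (x axis, bars are SE) for 10 higher and 9 lower genes of smallest p under the count-file names. Red circles are the 8 cortex libraries by count-file names, grey squares the same libraries by the RPKM table's names, and green triangles the 4 mice named alike in both. The grey squares lie between -0.25 and 0.17, while red and green lie on the same side of 0 for all 19 genes.

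Immediate early genes are transcribed within minutes of neuronal activity or handling, without new protein synthesis. Under the count-file names 17 of the 20 tested had a higher and 3 a lower mean, with a median log2 fold change of 0.29 against 0.00 over all genes tested. At an unadjusted p of 0.05, 9 were higher (background 2.50%) and 1 lower (background 2.23%), and none passed the adjusted p. Arc and Nr4a1 are described above. Junb, a subunit of AP-1, was at 134, 113, 176 and 170 CPM in the A391T mice and at 84.0, 98.1, 86.6 and 123 CPM in the wild-type mice. Its log2 fold change was 0.60 (SE 0.15), and wild-type mouse CTX480 overlapped the A391T group. Homer1, which encodes a scaffold of the postsynaptic density, was the member lower in A391T, with a log2 fold change of -0.28 (SE 0.07). Npas4, an activity-dependent transcription factor, was at 37.2, 23.4, 75.1 and 63.8 CPM in A391T and at 24.5, 37.8, 50.8 and 65.9 CPM in wild type, which is no separation (0.16, SE 0.35). Under the count-file names 6 members were higher at an unadjusted p of 0.05 without mouse CTX461 (1.75% among all genes) or CTX462 (2.26%). The median was then 0.23 or 0.20. Without mouse CTX446 (1.78%) or CTX480 (3.88%) 12 were higher. The direction of the list depended on the names. Under the table names the median was -0.26, with 16 of 20 lower and 10 lower at an unadjusted p of 0.05 (background 3.14%), and in the 4 mice named alike it was -0.09. The summed level was 1996, 1827, 2386 and 2252 CPM in the A391T mice and 1546, 1677, 1635 and 1852 CPM in the wild-type mice, so that mice CTX461 and CTX462 were the highest of all.

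The promoter of Nr4a1 is shown as an example of how such genes are switched on. Neuronal activity phosphorylates CREB, which binds cAMP response elements. The capitals mark the core TGACG in either strand, which reads CGTCA on the other strand, in the 250 bases before the RefSeq start (GRCm38.p6, chr15:101266596-101266845, plus strand). The core occurs 4 times, starting 233, 213, 69 and 40 bases before the start.
Nr4a1 upstream: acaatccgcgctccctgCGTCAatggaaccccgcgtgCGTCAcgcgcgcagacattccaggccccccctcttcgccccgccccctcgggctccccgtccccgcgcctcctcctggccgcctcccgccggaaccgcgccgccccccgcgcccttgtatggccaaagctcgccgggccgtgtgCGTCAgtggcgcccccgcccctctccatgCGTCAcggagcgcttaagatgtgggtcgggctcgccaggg
Promoter windows were matched for 16 of the 20 immediate early genes. The core, which is also part of the full element TGACGTCA, was found in 15 of their 27 windows (55.6%) against 17.8% of all 32851 windows, and the full element in 2 of 27 (7.41%) against 1.55%. The CArG box, the site of serum response factor, was found in 4 of 27 (14.8%), all of them windows of Egr2, against 1.47%. These matches describe the sequence and do not show that a factor was bound.

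Genes of the unfolded protein response help proteins fold in the endoplasmic reticulum and rise when folding fails. All 16 tested had a lower mean in A391T, with a median log2 fold change of -0.23. At an unadjusted p of 0.05, 9 of the 16 were lower (background 2.23%) and 0 higher, and none passed the adjusted p. Ddit3, the stress transcription factor CHOP, was at 30.2, 30.6, 29.3 and 29.3 CPM in the A391T mice and at 37.7, 32.4, 35.8 and 37.1 CPM in the wild-type mice. The groups did not overlap, with a log2 fold change of -0.26 (SE 0.07). The protein disulfide isomerase gene Pdia4 was at -0.23 (SE 0.07), the secreted factor gene Manf at -0.23 (SE 0.07) and Chac1, which degrades glutathione, at -0.34 (SE 0.12), of which only Chac1 also showed no overlap. Hspa5, the chaperone BiP, was at 296, 277, 308 and 308 CPM in A391T and at 341, 286, 376 and 393 CPM in wild type, where mouse CTX448 lay among the A391T mice (-0.23, SE 0.09). The summed level of the list was 1619 to 1765 CPM in A391T and 1716 to 2283 CPM in wild type, and mice CTX479 and CTX480 had the highest sums, 2075 and 2283 CPM. CTX480 is also the library set apart above by reads not aligned uniquely and by Mir5115, AY036118, Lars2 and Kcnq3, and the part of this in the result was not tested. Without it all 16 again had a lower mean, with a median of -0.17 and 6 lower at an unadjusted p of 0.05 (3.56% among all genes). Without mouse CTX446 4 were lower at that threshold (1.53% among all genes), and without mouse CTX479 5 (1.80%). Under the table names the median was -0.10 with 3 of 16 lower at an unadjusted p of 0.05 (background 3.14%), and in the 4 mice named alike it was -0.32. Ddit3 came to -0.01 and Chac1 to 0.04 under the table names, while Hspa5 stayed at -0.21.

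The ER stress response element of some genes of this family (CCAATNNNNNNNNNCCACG, both strands) is shown in the Hspa5 promoter. The capitals mark the element, which begins 65 bases before the RefSeq start (GRCm38.p6, chr2:34771840-34772089, plus strand).
Hspa5 upstream: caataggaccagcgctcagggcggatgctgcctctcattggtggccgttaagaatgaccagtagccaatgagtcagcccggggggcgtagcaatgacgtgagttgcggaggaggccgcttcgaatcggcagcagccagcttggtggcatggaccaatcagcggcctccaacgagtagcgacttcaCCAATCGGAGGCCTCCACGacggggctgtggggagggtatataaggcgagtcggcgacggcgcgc
Windows were matched for 15 of the 16 genes, and 5 of the 15 windows (33.3%) held the element, those of Calr, Creld2, Hsp90b1, Hspa5 and Pdia6, against 0.113% of all windows.

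**Figure D3:**
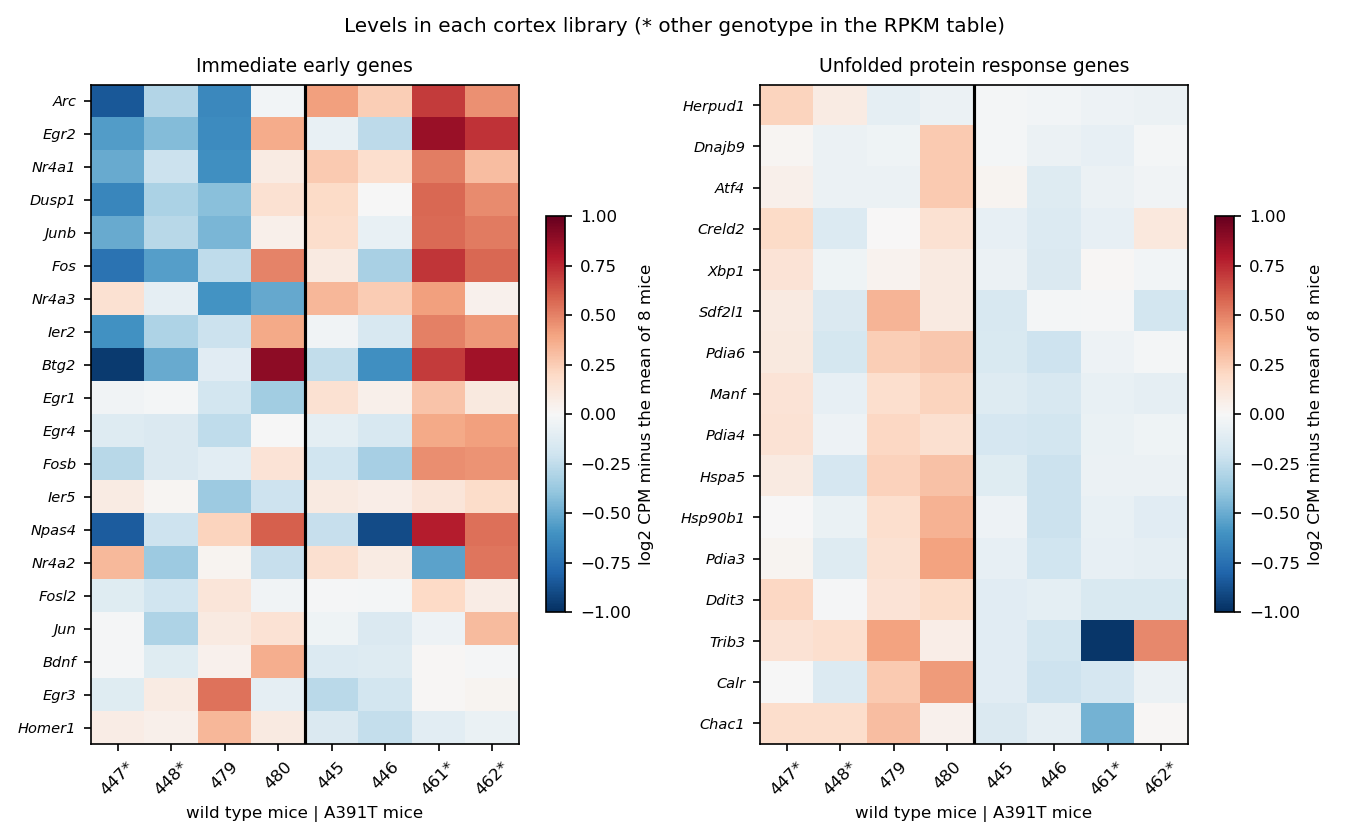
Level of each immediate early gene (left) and unfolded protein response gene (right) in each cortex library, as log2 CPM minus the mean of the 8 mice (colour, red above and blue below the mean), with genes ordered by log2 fold change. Asterisks mark libraries that carry the other genotype in the RPKM table. Most immediate early genes were highest in A391T mice CTX461 and CTX462, and most unfolded protein response genes in wild-type mice CTX479 and CTX480, with exceptions such as Homer1 and Herpud1.

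Heat shock genes encode chaperones of the cytosol, and all 8 tested had a lower mean in A391T, with a median log2 fold change of -0.19. At an unadjusted p of 0.05, 2 were lower (background 2.23%). The summed level was 958 to 1035 CPM in A391T and 1046 to 1197 CPM in wild type, which did not overlap, while the groups overlapped by the table names and when log2 values were averaged in place of the sum. Hsph1 was at 363, 339, 330 and 355 CPM in the A391T mice and at 373, 375, 463 and 439 CPM in the wild-type mice, with a log2 fold change of -0.25 (SE 0.08). Hspb1, a small heat shock protein gene, was at -0.72 (SE 0.31), with 1.15 to 1.76 CPM in A391T and 1.24 to 3.92 CPM in wild type, and at -0.36 without wild-type mouse CTX480, the highest. Hspa1a and Hspa1b, near-identical inducible genes whose reads may be shared or lost, were at -0.35 (SE 0.16) and -0.32 (SE 0.15). Under the table names all 8 were again lower, with a median of -0.14 and 1 at an unadjusted p of 0.05 (background 3.14%). Under the count-file names the number lower at that threshold was 1 without mouse CTX446, CTX461, CTX479 or CTX480 (1.53% to 3.56% among all genes) and 4 without mouse CTX448 (3.34%) or CTX462 (2.13%), and 7 of 8 had a lower mean without mouse CTX446, CTX447 or CTX480.

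Genes of cholesterol synthesis and uptake are driven together by SREBP2 when sterols are low. Of the 17 tested, 15 had a higher mean in A391T, with a median log2 fold change of 0.16, and 7 were higher at an unadjusted p of 0.05 (background 2.50%) with none passing the adjusted p. Lss, the lanosterol synthase, was at 45.9, 48.9, 51.3 and 43.2 CPM in the A391T mice and at 41.7, 41.5, 38.5 and 36.0 CPM in the wild-type mice. The groups did not overlap, with a log2 fold change of 0.26 (SE 0.07). Cyp51, a sterol demethylase, was at 0.23 (SE 0.08) and overlapped. Without mouse CTX461, 3 were higher at that threshold (1.75% among all genes). By the table names the median was 0.05 and 0 of 17 reached an unadjusted p of 0.05 in either direction, while in the 4 mice named alike it was 0.20.

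Plin4 is itself a target of the glucocorticoid receptor, and a list of 14 such genes held values in both directions. At an unadjusted p of 0.05, 6 were lower (background 2.23%) and 3 higher (background 2.50%), Plin4 being the only one past the adjusted p, and the median was -0.09. Hif3a, a hypoxia-inducible factor subunit, was at 5.93, 5.99, 6.00 and 6.74 CPM in the A391T mice and at 8.15, 12.3, 10.4 and 7.00 CPM in the wild-type mice. The groups did not overlap, with a log2 fold change of -0.63 (SE 0.16). Sult1a1, a sulfotransferase, was at -0.57 (SE 0.13) without overlap, and Pdk4, a kinase that restrains pyruvate oxidation, at 0.31 (SE 0.09). Fkbp5, which encodes a cochaperone of the receptor, was at -0.29 (SE 0.10). Per1, also a clock gene, was at 172, 183, 180 and 153 CPM in A391T and at 154, 156, 85.6 and 71.9 CPM in wild type (0.56, SE 0.21). Mice CTX479 and CTX480 alone were low, and mice CTX447 and CTX448 lay within the A391T range. With the table names the median of the list was 0.11, and 1 gene was lower at an unadjusted p of 0.05 (background 3.14%) with 0 higher (background 1.58%).

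**Figure D4:**
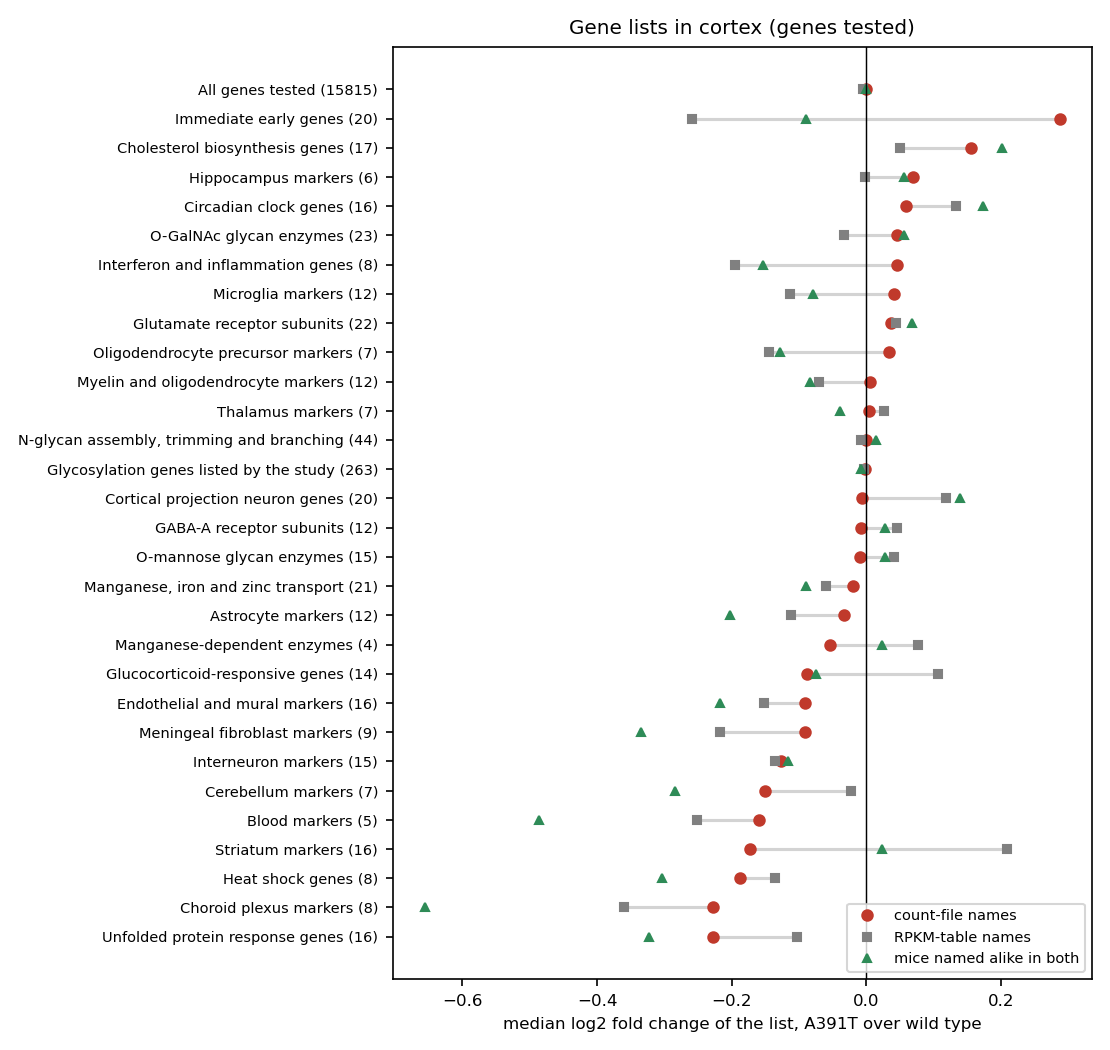
Median log2 fold change, A391T over wild type (x axis), of each gene list in cortex, with the number of genes tested in parentheses. Red circles are the count-file names, grey squares the RPKM table's names and green triangles the 4 mice named alike. The immediate early genes ran from 0.29 to -0.26 between the 2 sets of names, while the glycosylation genes lay within 0.01 of 0 under all 3.

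The level of Slc39a8 itself did not separate the genotypes under the count-file names. Per length, it was at 2.68, 2.79, 1.98 and 2.38 TPM (scaled to gene length and to a fixed sum over genes) in A391T mice CTX445, CTX446, CTX461 and CTX462 and at 2.52, 2.75, 1.66 and 1.63 TPM in wild-type mice CTX447, CTX448, CTX479 and CTX480. The groups overlapped, with means of 2.46 ± 0.361 and 2.14 ± 0.579 TPM (SD, n = 4 each, exact two-sided permutation p = 0.371). The log2 fold change in the fit was 0.17 (SE 0.18), on 75 to 169 counts a library. By the names of the table the genotypes did not overlap, since mice CTX479 and CTX480 with CTX461 and CTX462 were then the wild-type group, and the exact permutation p was 0.0286, the smallest that 4 against 4 allow, with a log2 fold change of 0.47 (SE 0.12) whose adjusted p was 0.882. In the 4 mice named alike the log2 fold change was 0.70 (SE 0.17, adjusted p = 0.833 with edgeR). A missense change need not alter RNA level, so these values check neither set of names.

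Slc39a14, the related importer ZIP14, was at 11.5 ± 0.473 TPM in A391T and 11.6 ± 1.32 TPM in wild type (log2 fold change -0.03, SE 0.07, exact two-sided permutation p = 0.943 on TPM). Slc30a10, the manganese exporter, was at 15.0 ± 0.926 and 13.9 ± 0.467 TPM (0.09, SE 0.07, exact permutation p = 0.0571), which did not pass. Of the 21 genes of manganese, iron and zinc transport tested, 0 reached an unadjusted p of 0.05 in either direction and the median log2 fold change was -0.02. The lowest p was that of the metallothionein gene Mt1, with a log2 fold change of -0.25 (SE 0.12). It ran from -0.33 to -0.115 when 1 mouse was left out. With the names of the table, 1 was higher (background 1.58%) and 3 lower (background 3.14%) at an unadjusted p of 0.05. The 4 tested genes of manganese-dependent enzymes had a median of -0.05, with 0 at an unadjusted p of 0.05. Their median was 0.08 by the table names and 0.02 in the 4 mice named alike.

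Of the 263 tested from the list of glycosylation genes that the study assembled, 6 were higher (background 2.50%) and 11 lower (background 2.23%) at an unadjusted p of 0.05 with edgeR, and 0 passed the adjusted p. Their median log2 fold change was 0.00, from -0.63 for Chst5 to 0.99 for Ndst4, which was at 8.30 CPM in A391T mouse CTX462 and at -0.25 on the log2 scale without it. Galnt9, a transferase that starts O-GalNAc glycans, had the smallest p, at 103, 102, 106 and 108 CPM in the A391T mice and at 120, 124, 164 and 133 CPM in the wild-type mice. The groups did not overlap (log2 fold change -0.37, SE 0.09, adjusted p = 0.784), and the value was -0.19 (SE 0.13) under the table names. The enzymes that shape the N-glycans of brain were close to 0. Mgat3, which adds the bisecting residue, was at a log2 fold change of 0.02 (SE 0.06), and Fut8, which adds core fucose, at -0.01 (SE 0.06). Fut9, which adds outer-arm fucose, was at -0.02 (SE 0.08), where a second entry of the annotation with the same name overlaps its exons. Mgat5b, a branching enzyme of O-mannose glycans in brain, was at 0.02 (SE 0.07). Of the 44 genes of N-glycan assembly, trimming and branching, 22 had a higher and 22 a lower mean, and 0 reached an unadjusted p of 0.05. Of the 23 O-GalNAc enzymes tested 1 was higher and 2 lower at that threshold, and of the 15 O-mannose enzymes 1 was higher and 0 lower, beside 2.50% higher and 2.23% lower among all genes. By the table names 2 of the 263 glycosylation genes were higher (background 1.58%) and 11 lower (background 3.14%) at that threshold. Of the 44 N-glycan genes 0 were then higher and 2 lower, of the O-GalNAc enzymes 0 and 1, and of the O-mannose enzymes 0 and 0.

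None of 14 marker lists for cell types and neighbouring regions passed an exact test between the genotypes. The smallest exact two-sided permutation p for a summed level was 0.0571, for interneuron markers (adjusted 0.800 over the 14 lists), and under the table names it was also 0.0571 (adjusted 0.267). Striatum markers varied most among mice. Their sum was 2004, 1568, 742 and 2116 CPM in A391T mice CTX445, CTX446, CTX461 and CTX462 and 1826, 1737, 2033 and 1467 CPM in wild-type mice CTX447, CTX448, CTX479 and CTX480, so that mouse CTX461 alone was low. The dopamine receptor gene Drd2 was at 5.76 CPM in that library and at 28.9 to 48.0 CPM in the other 7. All 16 striatum markers tested had a lower mean in A391T with 0 at an unadjusted p of 0.05 in either direction, and under the table names 13 of 16 had a higher mean. Meningeal fibroblast markers summed to 590 to 800 CPM in A391T and 690 to 826 CPM in wild type, and choroid plexus markers to 275 to 332 and 294 to 326 CPM. Blood markers were at 74.0 to 92.8 and 74.2 to 118 CPM. Of the 9 meningeal markers tested 6 had a lower mean by the count-file names, with a median of -0.09. By the table names all 9 did, with a median of -0.22 and 4 lower at an unadjusted p of 0.05 (background 3.14%). In the 4 mice named alike all 9 were lower (median -0.33). All 5 blood markers had a lower mean under each grouping, 2 of them at that threshold by the table names. None of the lists had a member at 0 in all 8 libraries. The part of these sums in the differences above was not tested.

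**Figure D5:**
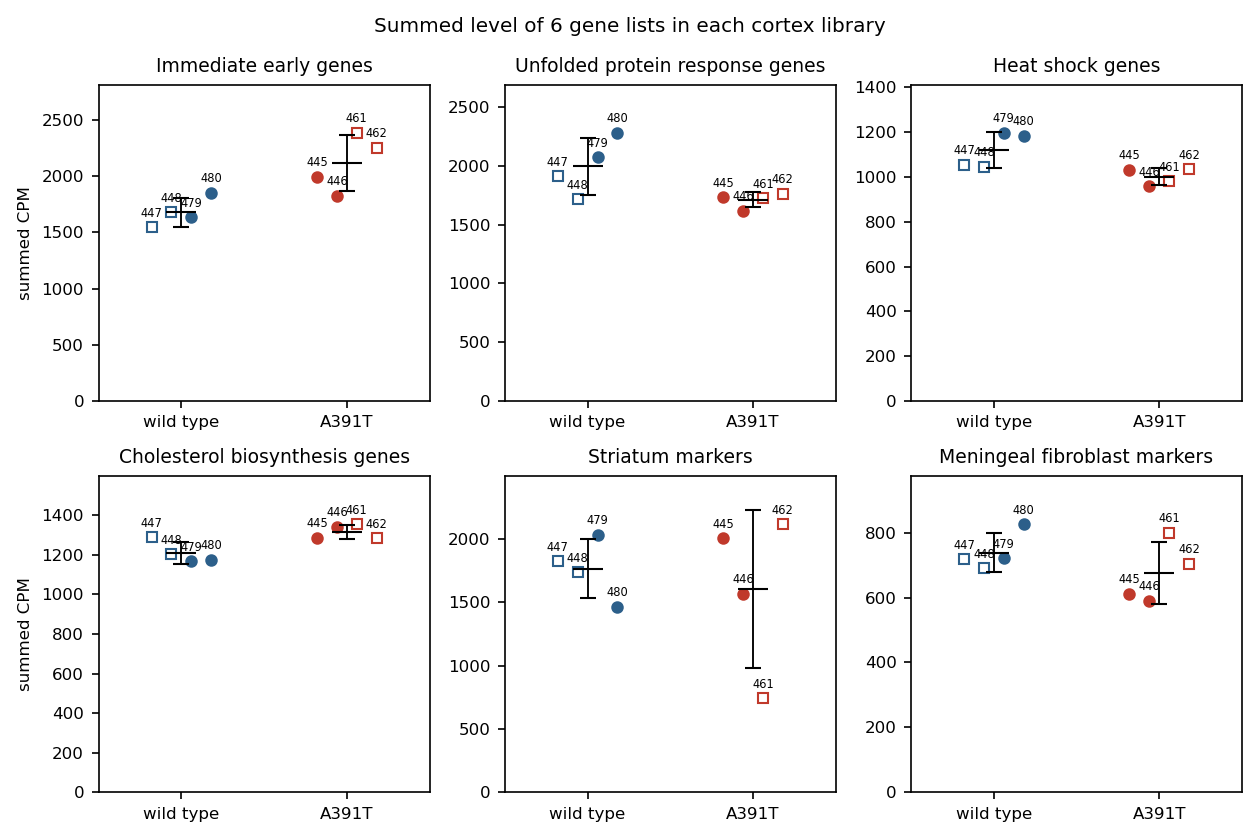
Summed CPM (y axis, from 0) of 6 gene lists in each cortex library, grouped by count-file genotype. Points are single mice with the numbers of their library names, bars the mean and SD, and open squares libraries that carry the other genotype in the RPKM table. Striatum markers were low in A391T mouse CTX461 alone, at 742 CPM, and the sums of heat shock genes were lower in all 4 A391T mice than in all 4 wild-type mice by the count-file names, while by the table names they overlapped.

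In the cerebellum of the same mice no gene passed the adjusted p with edgeR (0% of 15668 tested), the smallest being 0.18, while 1340 genes (8.55%) had an unadjusted p under 0.05. Plin4 had a log2 fold change of -1.26 there (SE 0.30, adjusted p = 0.532), which did not pass, and Klf10 was at -0.23 (SE 0.13). Agxt2l1 (-0.49), Sox18 (-0.42) and Vwf (-0.58) had log2 fold changes of the same sign in both regions, and Arc (-0.23) and Cbln4 (0.22) did not. Of the 19 genes of smallest p named for cortex, 18 were tested in cerebellum. By the count-file names 12 had the same sign in both regions, and 6 had an unadjusted p under 0.05 in cerebellum (8.55% among all genes). The unfolded protein response list had a median log2 fold change of 0.00 in cerebellum against -0.23 in cortex, and the immediate early genes 0.39 against 0.29. By the names of the table, cerebellum also had 0 genes past the adjusted p with edgeR, with 1226 (7.82%) at an unadjusted p under 0.05. The log2 fold changes there were then -0.22 for Plin4, -0.33 for Klf10, -0.02 for Agxt2l1, 0.01 for Sox18, -0.23 for Vwf, -0.44 for Arc and -0.45 for Cbln4. The medians were 0.10 for the unfolded protein response list and -0.24 for the immediate early genes. The test of the difference itself called 0 of 16589 genes (0%) with edgeR, with 805 (4.85%) at an unadjusted p under 0.05, and with the mouse as a replicate block it called 0 (0%), with 660 (3.98%). Klf10 had the smallest p there, its log2 fold change being 0.98 higher in cortex (SE 0.17, adjusted p = 0.367). No difference between the genotypes can therefore be called particular to cortex.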

How the data were processed

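PolyA RNA of snap-frozen cortex and cerebellum was made into directional libraries and sequenced in single reads by the authors, who aligned them to mm9 with STAR and counted genes without regard to strand. The deposited files hold raw counts per gene for each library, and 1 deposited table holds RPKM values, which the authors computed from the counts and which served here only for its library names: each of its columns was proportional to the counts of 1 library within a tolerance of 1e-06. The genotype groups came from the sample titles. Per the labels no batch was given. The study's paper calls its mice littermates, and which mouse came from which litter is not given, so p-values measure only the spread between these mice.

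The counts of the 8 cortex libraries were filtered by expression, leaving 15815 of 37583 listed genes, scaled by TMM and tested with edgeR 4.0.16 (quasi-likelihood test, two-sided, Benjamini-Hochberg adjustment over all genes tested) in R 4.3.3. Calls needed an adjusted p under 0.05 and, for the criterion of the study, a fold change of 2. CPM values are counts scaled to library size as adjusted by TMM, and TPM was computed from counts and exon length. Summed levels and Slc39a8 were tested by exact two-sided permutation over 70 splits of 4 against 4, whose smallest p is 0.0286. Reads in no gene were 10.9% to 12.7%, and ambiguous reads 2.20% to 2.28%. No 2 libraries of a group agreed within sampling noise (chi-square per degree of freedom 3.18 to 31.9). The script was tested on simulated data.

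Named genes were those past the adjusted p, filled to 10 in each direction by p among genes with a mean of at least 1 CPM, with fixed genes of transport and glycosylation and up to 4 further members of each list by p. The members and gene lists were chosen with earlier results of these data known. Of the genes so named, 1 of the lower genes and 2 list members are not reported here. Hmgcs1 was not matched by symbol in the files, and a list of mitochondrially encoded genes was not used. Cortex and cerebellum with the same number come from the same mouse. Their deviations from the group means correlated at -0.14 to 0.15, against -0.21 to 0.20 for different mice. Alternatives were RLE factors and library totals, other filters, DESeq2 1.42.0, edgeR's exact test, limma 3.58.1 voom, all 16 libraries in 1 model, a test against a 1.2-fold change, the table names, the 4 mice named alike and leaving out each mouse. The cerebellum under the table names and the list counts without each mouse were added after seeing the data. Promoter sequences are from RefSeq (GRCm38.p6).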

Additional observations from a re-analysis of the deposited data

Results flagged for a closer look

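In 13 of 194 groups of 4 mice (6.70%), 1 mouse stood apart from the other 3 by Dixon's test, where chance alone gives about 0.05 of groups. Mouse CTX479 accounted for 4 of the wild-type genes. There Klf10 was at 27.4 CPM against 36.1 to 37.0 CPM, Tiparp at 10.4 against 13.7 to 13.8 CPM, Ide at 74.6 against 50.7 to 52.7 CPM and Homer1 at 275 against 226 to 232 CPM. Wild-type mouse CTX480 was low for Mgat5b, at 121 against 142 to 146 CPM, and high for the summed genes of manganese, iron and zinc transport, at 4627 against 3767 to 3820 CPM. Egr2 was also high there, at 20.7 against 10.4 to 11.9 CPM. Sik1 was high in wild-type mouse CTX448, at 17.4 against 14.6 to 15.0 CPM, and Agxt2l1 was low in wild-type mouse CTX447, at 23.2 against 32.6 to 33.9 CPM. Among the A391T mice, 1700001L05Rik was low in mouse CTX461, at 1.92 against 2.61 to 2.64 CPM. The summed sex-linked genes were high in that mouse, at 138.4 against 124 to 125.4 CPM. Hif3a was high in mouse CTX462, at 6.74 against 5.93 to 6.00 CPM, and so was Ndst4, at 8.30 against 0.57 to 1.77 CPM.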

How the results depend on the processing

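The number of genes past the adjusted p and 2-fold, 1 as reported, was 0 with RLE factors, library totals, a CPM of at least 1 in 4 libraries, limma voom, all 16 libraries in 1 model, the table names or a test against a 1.2-fold change, 2 with all genes that had a count, with edgeR's exact test and by the adjusted p alone, 3 with DESeq2, and 0 to 2 when 1 mouse was left out. By the adjusted p alone, 2 as reported, the number was 0 in the same 7 settings, 7 with all genes that had a count, 13 with the exact test, 16 with DESeq2, 1 in the 4 mice named alike, and 0 to 4 when 1 mouse was left out. Fewer or more genes tested, or fewer mice, enter by construction in the filters and the left-out mice, and otherwise the cause was not tested. The log2 ratio of Slc39a8 TPM was 0.20 as reported, 0.49 under the table names (exact permutation p = 0.0286) and 0.09 to 0.34 when 1 mouse was left out. With the mouse as a replicate block, the difference between regions called 0 genes (smallest adjusted p 0.409 with edgeR, 660 genes at an unadjusted p under 0.05) as without the block, also under the table names, and the pairing changed no call.

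Alternatives for single genes were computed for most of the genes named in the text, but not for Mir5115, AY036118, Lars2 or Kcnq3. Under the table names the log2 fold change changed sign for Sik1 (-0.11), Arc (-0.25), Tiparp (-0.0135), Sox8 (-0.0101), Ier5l (-0.00949), Nr4a1 (-0.17), Ide (-0.15), Junb (-0.38), Btg2 (-1.19), Gadd45g (-0.67), Npas4 (-1.06), Cyp51 (-0.0350), Pdk4 (-0.0854), Slc30a10 (-0.0594), Plin4 (0.000394), Cited4 (0.0596), Hif3a (0.12), Chac1 (0.0430), Slc39a14 (0.10), Fut9 (0.0607), Cyr61 (-1.33), Drd2 (0.24), Egr2 (-0.76), Ndst4 (-0.94), Herpud1 (0.13) and Chst5 (0.21). In the 4 mice named alike it did so for Btg2 (-0.89), Gadd45g (-0.53), Npas4 (-0.94), Slc39a14 (0.0764), Fut9 (0.0394), Cyr61 (-0.60), Drd2 (0.0591), Egr2 (-0.12) and Herpud1 (0.0549). When 1 mouse was left out, signs changed for Slc39a14 (-0.0702 to 0.0347), Mgat3 (-0.0232 to 0.0547), Mgat5b (-0.0343 to 0.0485), Fut8 (-0.0413 to 0.0163), Fut9 (-0.0613 to 0.0572), Npas4 (-0.10 to 0.41), Gfap (-0.0937 to 0.0721), Ptgs2 (-0.17 to 0.13), Drd2 (-0.44 to 0.17) and Ndst4 (-0.25 to 1.36). Plin4 at 42 to 245 counts and Slc39a8 at 75 to 169 limit what smaller differences could be seen.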

Other observations

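Of the 22 glutamate receptor subunits tested and the 12 GABA-A receptor subunits tested, 0 reached an unadjusted p of 0.05 in either direction with edgeR, and their median log2 fold changes were 0.04 and -0.01. Of the 16 circadian clock genes, 2 were higher (2.50% among all genes) and 2 lower (2.23%) at that threshold, 10 of 16 had a higher mean, and the median was 0.06. Under the table names 15 of 16 had a higher mean, with 3 higher (1.58% among all genes) and 0 lower (3.14%) at that threshold and a median of 0.13. Of the 13 interferon and inflammation genes 8 were expressed enough to be tested, with 0 at that threshold and a median of 0.05, against 2 lower (3.14% among all genes) and a median of -0.19 under the table names. All 13 together summed to 57.8, 58.8, 62.0 and 63.7 CPM in A391T mice CTX445, CTX446, CTX461 and CTX462 and to 58.5, 60.6, 79.6 and 101.5 CPM in wild-type mice CTX447, CTX448, CTX479 and CTX480. These sums overlapped under the count-file names and did not under the table names, where all 4 A391T mice were lower (log2 ratio -0.38). Lcn2, a member too low in most libraries to be tested with the 8, was at 18.8 and 32.7 CPM in mice CTX479 and CTX480 and at 2.20 CPM or less in the other 6. It was called with all genes that had a count (edgeR adjusted p = 0.0229) and with DESeq2 (0.000155). With edgeR it was not called with all 16 libraries in 1 model (adjusted p = 0.614) or without wild-type mouse CTX447 (0.104). Nor was it called without any 1 of the A391T mice (0.995 or more).

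Lrg1 and Ch25h, outside the lists above, were also highest in wild-type mice CTX479 and CTX480, and are named after their values were seen. Lrg1, which encodes a secreted glycoprotein of the acute phase, was at 2.84, 3.17, 3.71 and 2.47 CPM in A391T mice CTX445, CTX446, CTX461 and CTX462 and at 3.55, 5.41, 8.53 and 11.4 CPM in wild-type mice CTX447, CTX448, CTX479 and CTX480. Its log2 fold change was -1.23 (adjusted p = 0.784 with edgeR, 0.0154 with DESeq2). Ch25h, a cholesterol hydroxylase induced by interferon, was at 0.25, 0.35, 0.24 and 0.41 CPM in the A391T mice and at 0.44, 0.67, 1.15 and 2.24 CPM in the wild-type mice (log2 fold change -1.76, SE 0.49).

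Among the genes of smallest p under the table names, Ptgs2, which encodes cyclooxygenase 2, was at 12.8 and 13.9 CPM in mice CTX445 and CTX446, at 23.6 and 20.3 CPM in CTX461 and CTX462, at 13.3 and 16.7 CPM in CTX447 and CTX448 and at 18.5 and 22.6 CPM in CTX479 and CTX480. Its log2 fold change was -0.01 under the count-file names and -0.58 under the table names. Gfap, the filament protein gene of astrocytes, was at -0.01 and -0.34 on the same scale. Cyr61, an immediate early matrix protein gene, was at 0.78 and -1.33.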
